A study of Mus musculus with 18 samples.

Results

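Syndecans and glypicans, the core proteins that carry heparan sulfate chains on the cell surface, were followed across all groups of a study of miR-200a-3p in mouse cells. The family was chosen because Sdc1 fell about 9-fold in the inhibitor's negative control against high glucose, so that difference is given as a description with no test. Of 9 listed genes (Sdc1, Sdc2, Sdc3, Sdc4, Gpc1, Gpc2, Gpc3, Gpc4 and Gpc6), 8 were found by symbol among the 29112 genes counted. Of these, 6 passed the filter on low counts, all of them in every group, and were tested among 15074 genes. Gpc3 and Gpc4 did not pass it, and Gpc2 was not analysed here.

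Syndecans span the membrane and bind kinases, PDZ proteins and the cytoskeleton through a short cytoplasmic tail, while glypicans are held in the outer leaflet by a lipid anchor. Their heparan sulfate chains bind growth factors, morphogens, chemokines and matrix proteins, and present them to receptors. In the heart, syndecans are known for roles in fibrosis, in the response to pressure and in repair after infarction.

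RNA was measured in cells labelled HL-1, a line derived from a mouse atrial tumour, in 18 libraries that form 6 groups of 3. The groups were vehicle without transfection, high glucose without transfection, and 4 groups transfected in high glucose: an inhibitor against miR-200a-3p with its own negative control (inhibitor control), and a mimic of that microRNA with its own negative control (mimic control). Transfected cells were harvested 48 h after transfection, and all groups came from 1 cell line. A mimic is a synthetic duplex that adds microRNA activity and an inhibitor blocks it. Not given in the sources used here were the glucose concentration, any reagent on untransfected cells and whether replicates were separate cultures. The p-values therefore reflect only how far these libraries spread, and that spread may be technical.

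The libraries held 33655916 to 37928790 reads and stood in 3 sets: untransfected (vehicle and high glucose), inhibitor pair (inhibitor and its control) and mimic pair (mimic and its control). Across genes, log2 levels correlated at 0.98 to 0.996 within these sets and at 0.893 to 0.963 between them. Transfection therefore cannot be told apart from other differences between the sets. Of 18 atrial and cardiac muscle markers, 16 had reads, Myl7 and Sln had none, and Nppa, the atrial natriuretic peptide gene, had 2 reads in all libraries together. The markers summed to 31.7 to 97.0 CPM (a gene's count scaled to the library total), of which Tnnt2 gave 14.2 to 79.3 CPM and Gata4 8.31 to 13.1 CPM, so the defining atrial markers of the labelled line were absent or nearly so. Mimic replicate 2 held macrophage transcripts at a summed 1101 CPM, while the remaining 17 libraries ranged from 34.0 to 66.2 CPM. Results for members that rest on it are also given without it. Counts over the lists of heparan sulfate genes include it and are not given without it. Genes named from those lists kept their direction without it, apart from Thbs1.

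The microRNA of the reagents is shown first, with its seed (bases 2 to 8) in capitals, beside relatives from the same family, as RefSeq gives them. miR-141-3p has the same seed, AACACUG, and miR-200b-3p has a seed that differs at 1 base, AAUACUG.
miR-200a-3p: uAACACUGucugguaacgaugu
miR-141-3p: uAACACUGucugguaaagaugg
miR-200b-3p: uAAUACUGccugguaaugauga

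Among the 6 tested members, matches to this seed in the canonical 3′ UTR of the GENCODE M39 annotation lay in Sdc2 and Gpc1. They are shown because these genes moved in opposite directions with the mimic. Capitals mark the match, which is CAGTGTT (7mer-m8) or AGTGTT (6mer). Sdc2 had its match in the last exon, exon 5 of 5, at chr15:33032885-33032891 on the + strand. Gpc1 had matches in exon 9 of 9 at chr1:92788537-92788543 and chr1:92788503-92788508 on the + strand (GRCm39).
Sdc2 7mer-m8: tctaacatctgCAGTGTTctgtgaatagc
Gpc1 7mer-m8: gttggggcccaCAGTGTTgccattcagtg
Gpc1 6mer: cctgctcagccaAGTGTTgtgtgtgcttta
The 3′ UTRs of Sdc1 (1918 nt), Sdc3 (6097 nt), Sdc4 (1981 nt) and Gpc6 (4442 nt) held no match down to AGTGTT, that of Gpc4 held 1 of AGTGTT, and those of Sdc2 and Gpc1 were 2395 and 5827 nt long. Of 12906 tested genes with a canonical 3′ UTR, 27.5% held a match of at least 7 bases and 43.9% any match, at a median length of 1347 nt. A match is a description of the sequence and not a measured site.

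Levels are given as CPM scaled by TMM, a factor that corrects for differences in RNA composition, unless another scale is named. Differences are log2 fold changes with their standard error (SE) from edgeR's quasi-likelihood fit over all 18 libraries. A gene was called at a Benjamini-Hochberg adjusted p under 0.05 over the 15074 genes tested. Gene positions are those of GENCODE M39 on GRCm39. Because these are bulk samples, fewer cells of a type and less RNA per cell cannot be told apart.

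Sdc1 encodes the syndecan known from epithelia, plasma cells and injured heart muscle (ENSMUSG00000020592.15, chr12:8820854-8843725, + strand). It lay at 614, 601 and 607 CPM in the vehicle libraries and at 584, 566 and 571 CPM in high glucose. The inhibitor libraries held 62.3, 62.8 and 67.0 CPM and the inhibitor control libraries 64.1, 64.1 and 61.6 CPM. In the mimic group it lay at 88.4, 82.8 and 86.2 CPM, and in the mimic control at 95, 92.8 and 86.9 CPM. All 12 transfected libraries lay far below all 6 untransfected ones, and the inhibitor pair lay below the mimic pair without overlap.

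Sdc2 encodes the syndecan typical of mesenchymal cells (ENSMUSG00000022261.7, chr15:32920699-33035213, + strand). Its levels were 709.6, 712 and 646 CPM in vehicle and 698, 713 and 775 CPM in high glucose. The inhibitor group held 233, 229.8 and 223 CPM and the inhibitor control 212, 227 and 221 CPM. The mimic libraries were at 308, 273 and 304 CPM and the mimic control at 259, 244 and 258 CPM. Untransfected libraries were again highest, and within the mimic pair all 3 mimic libraries lay above all 3 controls.

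Sdc3, known from nervous tissue and developing muscle (ENSMUSG00000025743.15, chr4:130519826-130556217, + strand), was the lowest of the syndecans per length of transcript. It lay at 17.2, 14.5 and 15.8 CPM in vehicle and at 18.1, 19.9 and 18.9 CPM in high glucose. The inhibitor group had 7.46, 7.52 and 8.39 CPM and its control 8.44, 7.74 and 7.43 CPM. The mimic group had 20.4, 29.5 and 21.9 CPM and its control 22.8, 22.4 and 21.0 CPM. Low values were seen in the inhibitor pair, and the mimic pair lay above the untransfected libraries, the opposite order to the other members. Mimic replicate 2, the library with macrophage transcripts, was the highest of all 18.

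Sdc4, found in most tissues and known as the syndecan of focal adhesions (ENSMUSG00000017009.4, chr2:164266025-164285807, - strand), was ordered differently again. Vehicle libraries held 328, 317 and 325 CPM and high glucose libraries 372, 344 and 329 CPM. The inhibitor group held 229, 228 and 233 CPM and its control 221, 222 and 227 CPM. The mimic group was lowest at 143, 146 and 145 CPM, with its control at 161, 170 and 159 CPM. Here the mimic pair and not the inhibitor pair lay lowest, and no library of 1 set overlapped with another set.

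Gpc1 encodes a glypican of brain and muscle that binds fibroblast growth factors (ENSMUSG00000034220.8, chr1:92759062-92792113, + strand). It lay at 855, 777 and 813 CPM in vehicle and 799, 799.6 and 767 CPM in high glucose. The inhibitor group held 228, 221 and 239 CPM and its control 233, 247 and 229.8 CPM. The mimic group held 228, 210 and 227 CPM, against 307, 304 and 307 CPM in its control. The mimic control stood above every other transfected library, and the mimic libraries overlapped with the inhibitor group.

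Gpc6, a glypican of the growth plate (ENSMUSG00000058571.12, chr14:117162727-118216940, + strand), was expressed at a lower level. Vehicle libraries held 32.4, 31.0 and 33.4 CPM and high glucose libraries 24.4, 26.4 and 24.2 CPM. The inhibitor group held 17.7, 19.6 and 18.1 CPM and its control 20.7, 19.7 and 17.8 CPM. The mimic group held 12.7, 11.4 and 11.2 CPM and its control 13.4, 13.7 and 14.3 CPM. Each of the 3 sets was separate from the others, in the same order as for Sdc4.

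**Figure D1:**
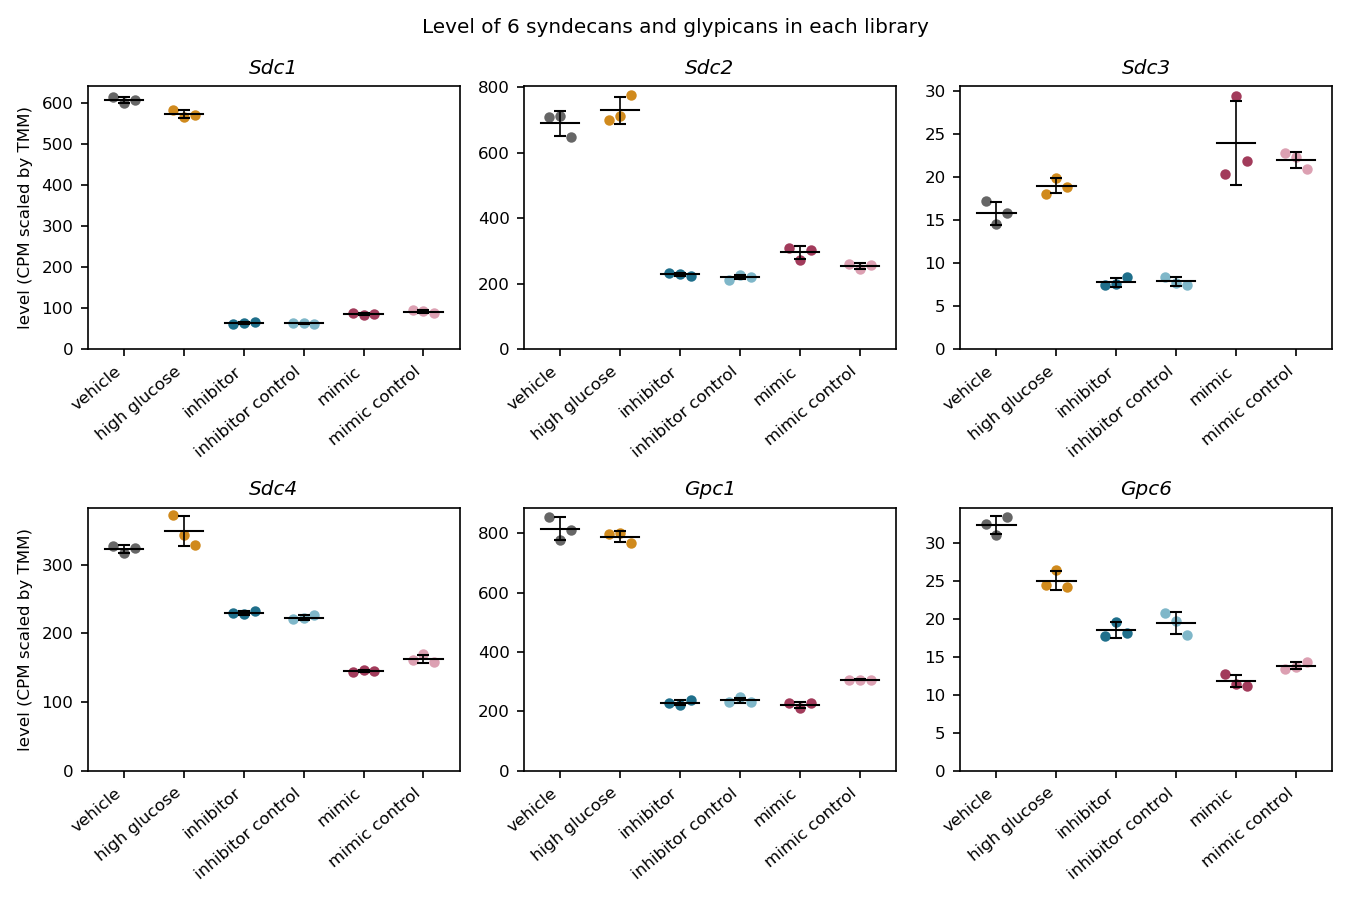
Level of the 6 tested members in each library, in CPM scaled by TMM on axes that start at 0. Points are libraries, lines are means and bars are ± SD (n = 3). Transfected groups lie below the untransfected groups except for Sdc3, where the mimic pair (20.4 to 29.5 CPM) lies above them.

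The remaining glypicans were near the limit of detection. Gpc4, known from neurons and embryonic tissue (chrX:51139255-51254262, - strand), had 21 reads in the 3 vehicle libraries together, 18 in high glucose, 7 in inhibitor, 9 in inhibitor control, 3 in mimic and 7 in mimic control. Gpc3, a fetal glypican whose loss causes an overgrowth syndrome (chrX:51361303-51703137, - strand), had between 2 and 4 reads per group. A count of 0 in a library allows up to 3 reads, which is 0.0791 to 0.0891 unscaled CPM and covers counting error only. No difference in Gpc3 was detectable at this depth, and no fold change is given for either gene.

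To compare members with each other, the deposited FPKM values (fragments per kilobase of transcript, scaled to the mapped fragments) were used, since they are scaled to transcript length. In vehicle, Sdc2 was highest at 198 ± 12.6 FPKM (SD, n = 3), followed by Sdc1 at 161 ± 1.59, Gpc1 at 159.6 ± 4.62 and Sdc4 at 128 ± 0.333 FPKM. Sdc1 and Gpc1 could not be ordered in vehicle or in high glucose, since their libraries overlapped. Gpc6 (5.07 ± 0.129 FPKM) and Sdc3 (2.67 ± 0.175 FPKM) were far lower.

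The order of the levels changed between the sets. In the inhibitor group Sdc4 came first at 88.9 ± 0.983 FPKM, ahead of Sdc2 (63.8 ± 1.52), Gpc1 (43.7 ± 1.68) and Sdc1 (16.5 ± 0.637 FPKM). In the mimic control the order was Sdc2 (64.4 ± 2.44 FPKM), Sdc4 (57.4 ± 1.73), Gpc1 (53.1 ± 0.626) and Sdc1 (21.5 ± 1.02 FPKM). Sdc3 stood above Gpc6 in the mimic pair and below it in the other 4 groups, with no overlap of libraries within a group. Neighbours among the 6 genes were separated in every library of every group, apart from Sdc1 and Gpc1 in the untransfected groups.

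The syndecans together summed to 489.5 ± 14.1 FPKM in vehicle and 499.7 ± 14.2 in high glucose, against 170.5 ± 0.667 in inhibitor, 165 ± 2.48 in inhibitor control, 157 ± 1.75 in mimic and 147 ± 1.84 FPKM in mimic control. Sdc1 made up 32.9% ± 0.705 of that sum in vehicle and 9.71% ± 0.366 in the inhibitor group (SD, n = 3). Its share was 14.7% ± 0.541 in the mimic control. The share of Sdc4 was 26.2% ± 0.71 in vehicle, 52.1% ± 0.492 in inhibitor and 39.2% ± 1.32 in mimic control. Sdc2 held between 37.1% and 50.1% in the group means and Sdc3 at most 2.41%. Among the glypicans counted, Gpc1 made up 93.7% to 97.5% of the FPKM in every group, and Gpc6 nearly all of the rest.

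**Figure D2:**
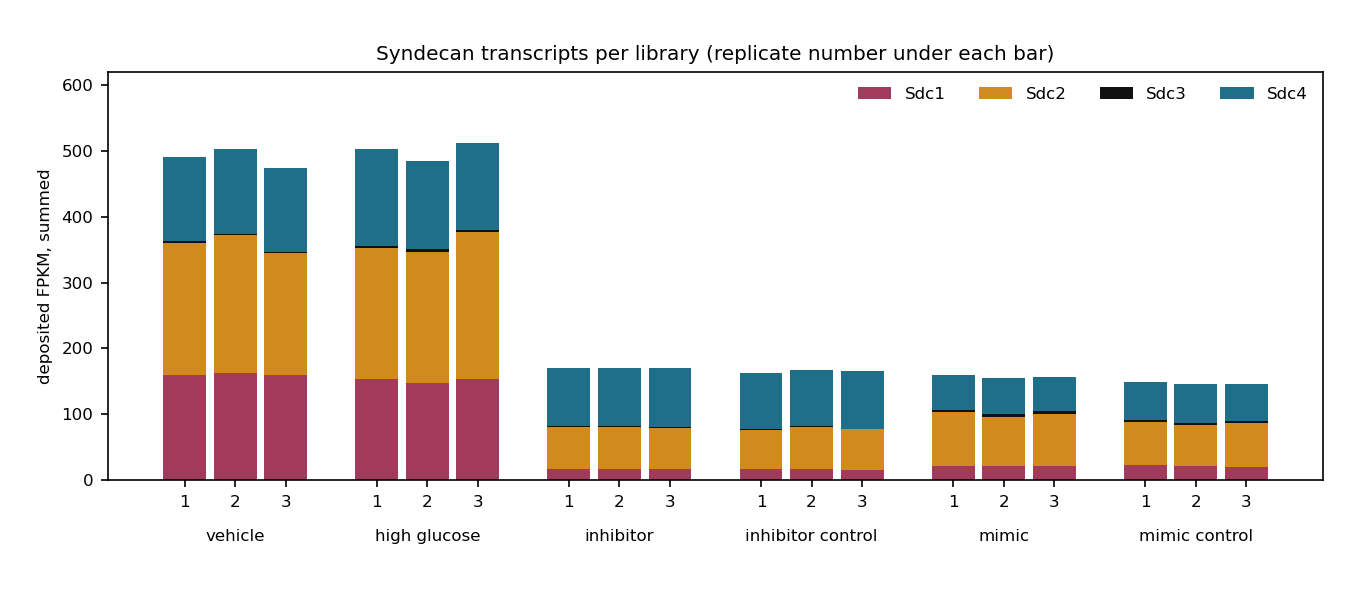
Deposited FPKM of the 4 syndecans, stacked for each of the 18 libraries, with the replicate number under each bar. The total is 475 to 512 FPKM in untransfected libraries and 145 to 171 FPKM in transfected ones, and Sdc1 takes the smallest share in the inhibitor pair.

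The difference on which the family was chosen was read in every member. Between inhibitor control and high glucose, Sdc1 differed by -3.18 on the log2 scale, a 9.07-fold lower level, with group means of 63.3 and 574 CPM. It ranked 220th from the lowest of 15074 genes, so 1.46% of genes lay as low. Gpc1 differed by -1.74, Sdc2 by -1.73, Sdc3 by -1.27, Sdc4 by -0.64 and Gpc6 by -0.36. The median of the 6 members, Sdc1 included, was -1.50, beside 0.04 over all genes tested. Without Sdc1, the middle value of the 5 other members was that of Sdc3, -1.27.

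The inhibitor libraries were compared with vehicle, since neither group entered the difference that chose the family. For Sdc1 the comparison is still not independent of that choice. Its levels in inhibitor and vehicle (64.0 and 607 CPM) lay close to those in inhibitor control and high glucose (63.3 and 574 CPM). Sdc1 is therefore described here with no test and left out of the counts. The 5 members counted were all called lower in the inhibitor group, by 1.40-fold for Sdc4 to 3.55-fold for Gpc1, and Sdc1 lay 9.49-fold lower. Among all genes tested, 40.2% were called lower and 40.5% higher in this comparison, so a call alone sets no member apart. Glucose, transfection and the inhibitor all differ between these groups.

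Sdc1 lay at 607 ± 6.84 CPM in vehicle and 64.0 ± 2.59 CPM in inhibitor (SD, n = 3), a log2 difference of -3.25. Gpc1 fell from 815 ± 38.8 to 229 ± 9.15 CPM (log2 -1.83, SE 0.049, adjusted p = 1.52e-17 by edgeR). Sdc2 fell 3.02-fold (log2 -1.59, SE 0.0559, adjusted p = 8.38e-16). Sdc3, Gpc6 and Sdc4 fell by less. Sdc3 changed by -1.02 (SE 0.11, adjusted p = 4.22e-08) and Gpc6 by -0.80 (SE 0.0658, adjusted p = 6.2e-10). Sdc4 went from 323 ± 5.68 to 229.9 ± 2.92 CPM (log2 -0.49, SE 0.044, adjusted p = 2.66e-09). The median of the 5 members without Sdc1 was -1.02, beside 0.02 over all genes tested, and all 5 were called in each of the 16 alternative settings run.

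Mimic control was compared with high glucose to ask what transfection with a control duplex did, in libraries that include the high glucose group used to choose the family. Sdc2, Gpc1, Sdc4 and Gpc6 fell and Sdc3 was not called, so 4 of 5 members fell and 0 rose, beside 39.9% lower and 39% higher among all genes tested. Here and below, Sdc1 is left out of counts and tests wherever its high glucose or inhibitor control libraries enter. Sdc1, selected on its high glucose and inhibitor control levels, lay 6.26-fold lower (log2 -2.65). The median of the 5 counted members was -1.09, beside 0.01 over all genes.

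Sdc2 fell from 729 ± 41.1 to 254 ± 8.24 CPM (log2 -1.52, SE 0.0558, adjusted p = 1.15e-15). Gpc1 fell from 789 ± 18.4 to 306 ± 1.81 CPM (log2 -1.37, SE 0.0484, adjusted p = 6.57e-16). Sdc4 fell 2.13-fold (log2 -1.09, SE 0.0446, adjusted p = 6.54e-15) and Gpc6 1.81-fold (log2 -0.86, SE 0.0681, adjusted p = 3.51e-10). Sdc3 lay the other way, at 22.0 ± 0.971 CPM in mimic control and 19.0 ± 0.88 CPM in high glucose (log2 0.22, SE 0.102, adjusted p = 0.0567). The Sdc3 difference was called without mimic replicate 2 (adjusted p = 0.00281), with the compared groups alone (0.00701), with no low-count filter (0.00996) and without mimic control replicate 3 (0.0461).

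Other transcripts also differed between the sets, some of them in another order than the members. The 7 fibroblast markers, all with reads and led by Col3a1, summed to 10571 to 10848 unscaled CPM in vehicle, 10940.3 to 12079.5 in high glucose, 2410 to 2536 in inhibitor, 2448 to 2584 in inhibitor control, 1049.6 to 1090.3 in mimic and 1059 to 1093 CPM in mimic control. The 5 skeletal myoblast markers, almost all from Des, summed to 4562 to 6119 CPM in untransfected libraries and to 1159.5 to 1357 CPM in transfected ones. Myf5 reached at most 57.1 CPM in any library, and Myod1, Myog and Pax7 at most 2.32 CPM. The sum therefore describes Des and not the set. Among the fibroblast markers, Thy1 stayed at 0.727 to 1.28 CPM and Lum had 12 reads in all libraries together. The part of both marker sets in the lower syndecan and glypican levels was not tested. Reads of the ribosomal gene Rn18s took 0.0841% to 0.181% of each library in the inhibitor pair, and 0.874% to 1.27% of each library elsewhere. Xist, the RNA of X inactivation, lay at 19.6 to 51.9 CPM in untransfected libraries, 1097 to 1278 CPM in the inhibitor pair and 106 to 249 CPM in the mimic pair. The part of Rn18s and Xist was not tested either. The cardiac markers lay at 53.9 to 70.2 CPM in untransfected libraries, 78.3 to 97.0 CPM in the inhibitor pair and 31.7 to 37.7 CPM in the mimic pair. Sets of 8 epithelial and 5 endothelial markers, all with reads, stayed at or below 28.9 and 1.35 CPM.

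The negative controls were compared with each other, since they differ by reagent and set but share glucose and transfection. Sdc3, Gpc1 and Sdc2 were lower in the inhibitor control, and Sdc4 and Gpc6 were higher. Called lower were 3 of the 5 members tested and called higher were 2 of 5, beside 35.7% lower and 38.5% higher among all genes. Sdc3 differed most, with 7.87 ± 0.519 CPM in inhibitor control and 22.0 ± 0.971 CPM in mimic control (log2 -1.49, SE 0.109, adjusted p = 1.9e-10). Sdc4 was 1.37-fold higher (log2 0.45, SE 0.0444, adjusted p = 1.54e-08) and Gpc6 1.41-fold higher (log2 0.49, SE 0.0688, adjusted p = 2.06e-06). Gpc1 was lower (log2 -0.37, SE 0.048, adjusted p = 7.1e-07).

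Sdc2 was lower by -0.21 (SE 0.0551, adjusted p = 0.00225), a call that ended with upper quartile scaling (adjusted p = 0.0817) and with limma on FPKM (adjusted p = 0.251 to 0.364). Sdc1 differed by -0.53 and was not tested, because its inhibitor control libraries chose the family. Upper quartile scaling moved the median of all genes from 0.04 to 0.146 here, and the directions of Sdc3, Sdc4, Gpc1 and Gpc6 were the same under it. The median of the 5 tested members was -0.21 with TMM.

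**Figure D3:**
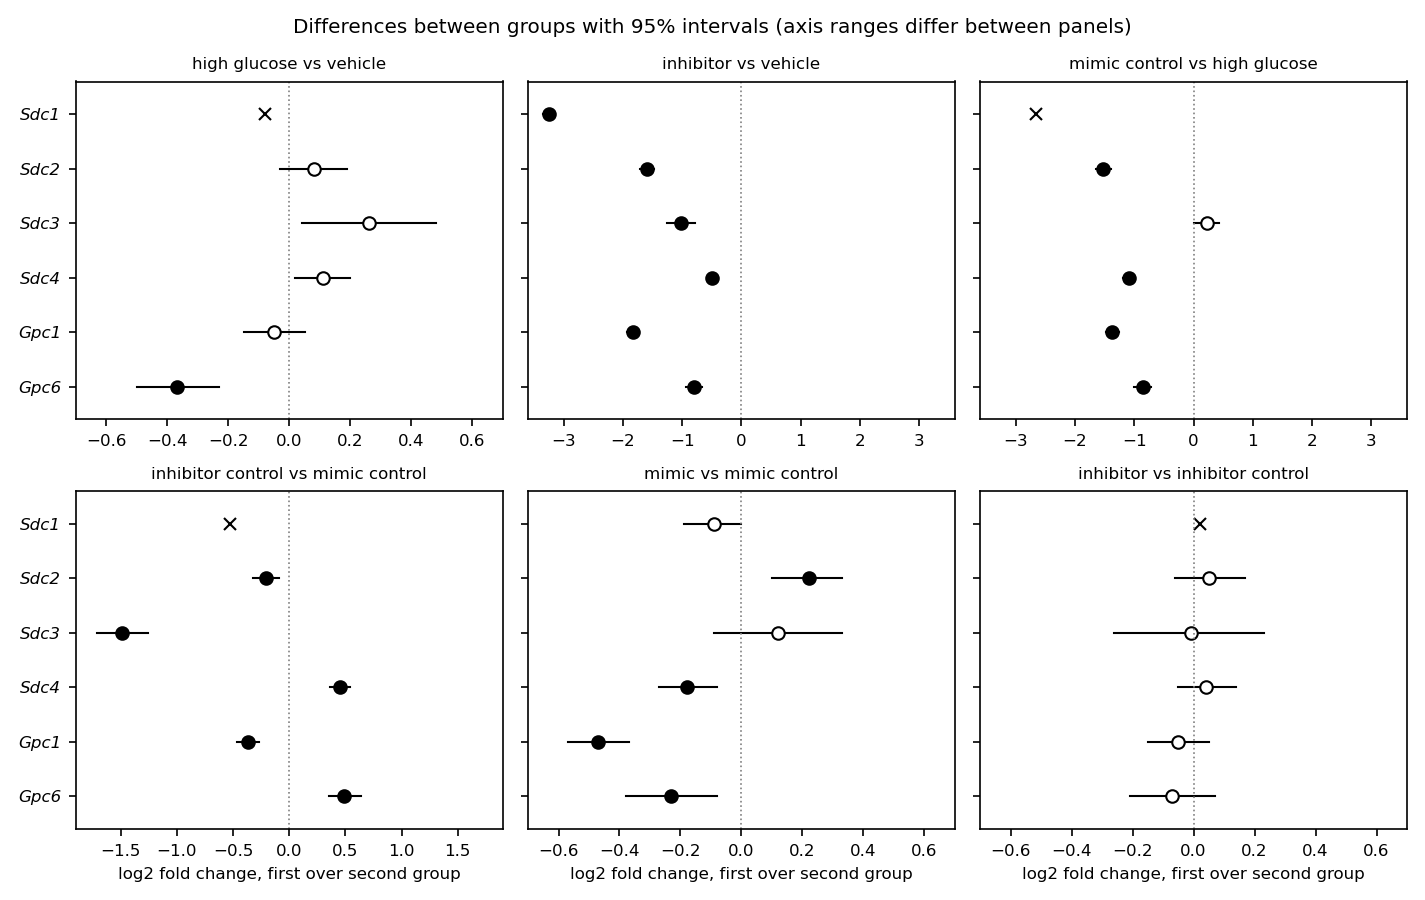
Log2 fold change of each member in 6 comparisons, with 95% intervals, on axes that differ in range between panels. Filled points were called, open points were not, and crosses mark Sdc1 where its high glucose or inhibitor control libraries enter, given with no test. For inhibitor against vehicle Sdc1 is drawn filled with its interval, but that difference is not independent of the choice of the family. Its fill is not to be read as a call there. All 6 members lie below 0 for inhibitor against vehicle, and the 5 intervals drawn for inhibitor against its control cross 0.

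The mimic was compared with its own control to ask what added miR-200a-3p did. No library of this comparison entered the difference that chose the family. Gpc1, Sdc4 and Gpc6 were lower with the mimic and Sdc2 was higher, by 1.13-fold to 1.38-fold. Called lower were 3 of 6 members and called higher 1 of 6, beside 18% lower and 15.8% higher among all genes tested. The 6 members had a median of -0.14, beside 0.0 over all genes. Without mimic replicate 2, 3 of 6 members were called, beside 2277 genes lower and 1734 higher of 15308 tested.

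Gpc1 changed most, from 306 ± 1.81 CPM in mimic control to 221 ± 9.96 CPM with the mimic (log2 -0.47, SE 0.048, adjusted p = 2.43e-06), and was lower in all 3 libraries. It was called in all 15 alternative settings, with changes of -0.498 to -0.386. Sdc2 rose from 254 ± 8.24 to 295 ± 18.7 CPM (log2 0.22, SE 0.055, adjusted p = 0.0055) and was called in all 15 settings too. Both genes carry a match of 7 bases to the seed in the 3′ UTR, shown above, and changed in opposite directions. The skeletal myoblast markers, almost all from Des, summed to 1169.8 to 1245 CPM in mimic and 1309.6 to 1357 CPM in mimic control, and their part was not tested.

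Sdc4 fell from 163 ± 5.75 to 145 ± 1.98 CPM (log2 -0.18, SE 0.0446, adjusted p = 0.00516), with no overlap between groups. That call ended with limma on FPKM (adjusted p = 0.0517 to 0.0858). Gpc6 fell from 13.8 ± 0.437 to 11.8 ± 0.844 CPM (log2 -0.23, SE 0.0711, adjusted p = 0.0187). The Gpc6 call ended without mimic replicate 2 (adjusted p = 0.0595), mimic replicate 3 (0.0675) or mimic control replicate 3 (0.0645) and with limma on FPKM (0.106 to 0.23). The 3′ UTRs of Sdc4 and Gpc6 held no seed match.

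Sdc1 and Sdc3 were not called with the mimic. Sdc1 lay at 85.8 ± 2.85 CPM against 91.6 ± 4.22 CPM (log2 -0.09, SE 0.0446, adjusted p = 0.113), and was called in DESeq2 (adjusted p = 0.0234) and without mimic control replicate 3 (0.0442). Sdc3 lay at 24.0 ± 4.88 against 22.0 ± 0.971 CPM (log2 0.12, 95% interval -0.09 to 0.33, adjusted p = 0.398). Its higher mean came from mimic replicate 2, and without that library the difference was -0.068 (adjusted p = 0.568). Macrophage transcripts stood high in the same library, with Lyz2 at 857 CPM, while every other library had 13.4 to 18 CPM, and their part in the Sdc3 value was not tested.

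Among all called genes 46.7% were higher with the mimic, and the share ran from 38.9% in DESeq2 to 63.5% with limma on log2(FPKM + 0.1), with 41.1% for DESeq2 size factors and 55.1% for upper quartile scaling. The directions of Gpc1, Sdc2, Sdc4 and Gpc6 were the same in every setting run.

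The inhibitor was compared with its control to ask what blocking miR-200a-3p did. None of the 5 members tested was called, and their group means differed by 1.01-fold to 1.05-fold. Sdc1 was at 64.0 ± 2.59 CPM with the inhibitor and 63.3 ± 1.42 CPM with the control (log2 0.02), given with no test. Sdc4 was the only member whose groups did not overlap, at 229.9 ± 2.92 against 223 ± 3.11 CPM (log2 0.04, 95% interval -0.05 to 0.14). The widest interval was that of Sdc3, -0.26 to 0.23. edgeR called 0 of 5 members and 0.0% of all genes in each direction. At an unadjusted p under 0.05 stood 0 members and 447 genes (2.97%), and DESeq2 called 0 genes, with 281 at an unadjusted p under 0.05. The inhibitor control libraries also entered the difference that chose the family.

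The effect of the mimic was then set against that of the inhibitor by testing the difference between them. Gpc1 and Sdc4 differed, both with a more negative effect of the mimic, and Sdc2, Sdc3 and Gpc6 did not pass. Called lower were 2 of 5 members and called higher 0 of 5, beside 8.59% lower and 4.63% higher among all genes tested. For Gpc1 the effects differed by -0.42 (SE 0.0679, adjusted p = 0.000999), which was called in all 21 alternative settings. For Sdc4 they differed by -0.22 (SE 0.0627, adjusted p = 0.0265). The Sdc4 call ended in 8 of 21 settings (adjusted p = 0.0549 to 0.141), among them upper quartile scaling and the fits without inhibitor replicate 3, inhibitor control replicate 2 or mimic control replicate 2. Sdc2 differed by 0.16 (SE 0.0778, adjusted p = 0.175) and Gpc6 by -0.16 (SE 0.0978, adjusted p = 0.304). Of all called genes 35.0% were higher, with a range from 25.6% without inhibitor control replicate 3 to 53.1% with limma on log2(FPKM + 0.1). It was 27.7% with DESeq2 size factors and 47.2% with upper quartile scaling. The median of the 5 members was -0.16, beside 0.01 over all genes.

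The untransfected groups were compared to see the response to glucose alone. Gpc6 was the only member called, and it was lower in high glucose. Called lower was 1 of 5 members and called higher 0 of 5, beside 12.2% lower and 12% higher among all genes tested, with a median of 0.08 for the 5 members. Gpc6 fell from 32.3 ± 1.21 to 25.0 ± 1.23 CPM (log2 -0.37, SE 0.0647, adjusted p = 0.0003), with no overlap between groups, and was called in all 16 alternative settings. Vehicle libraries did not enter the difference that chose the family, but high glucose libraries did.

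Sdc3 and Sdc4 lay higher in high glucose in all 3 libraries and missed the threshold. Sdc3 differed by 0.26 (SE 0.103, adjusted p = 0.0757), and was called without mimic replicate 2 (adjusted p = 0.00666), without the filter on low counts (0.0128) and with the compared groups alone (0.027). Sdc4 differed by 0.11 (SE 0.0438, adjusted p = 0.0766), and was called in DESeq2 (0.037) and without high glucose replicate 3 (0.0188). Sdc2 (log2 0.08, 95% interval -0.03 to 0.19) and Gpc1 (log2 -0.05, 95% interval -0.15 to 0.05) overlapped between groups. Sdc1 lay lower in all 3 libraries, by -0.08, given with no test. The 8 epithelial markers summed to 27.9 to 28.9 CPM in vehicle and 9.23 to 9.80 CPM in high glucose. Almost all of that sum came from Krt14, and no other epithelial marker passed 0.785 CPM in any library. The 9 macrophage markers summed to 61.9 to 66.2 and 51.3 to 52.8 CPM. Their part in these differences was not tested.

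Members were also compared by the shape of their pattern, as the root mean square difference between their 6 group means of log2 CPM, each centred on its own mean. Sdc4 and Gpc6 were closest at 0.142, followed by Sdc2 and Gpc1 at 0.226. Sdc1 and Sdc3 were farthest apart at 1.31. The genes searched had a mean of at least 5 CPM and were 9436 with Sdc1 counted and predicted gene models left out. Among them, the patterns most like that of Sdc1 were those of Per3 (0.0698), Zfp36l1 (0.0764), Adssl1 (0.0859), Snai1 (0.0872) and Arvcf (0.0996). Per3, a circadian clock gene, lay at 26.9 and 29.9 CPM in vehicle and high glucose, 2.94 and 2.89 CPM in the inhibitor pair, and 4.01 and 4.30 CPM in the mimic pair. Snai1, a transcriptional repressor of epithelial genes, lay at 13.9, 15.2, 1.41, 1.42, 1.82 and 1.99 CPM in the same order. These values describe 6 group means, and libraries within a group share their source.

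Start regions of Sdc1, Sdc3 and Sdc4 are shown because these syndecans had unlike patterns across the sets. They are the 250 bases before the start, 5′ to 3′, as RefSeq gives them on GRCm38.p6, and capitals mark matches to GGGCGG, the GC box, on either strand. The Sdc1 region lies at chr12:8771146-8771395 (+ strand), that of Sdc3 at chr4:130792287-130792536 (+ strand) and that of Sdc4 at chr2:164443189-164443438 (- strand).
Sdc1: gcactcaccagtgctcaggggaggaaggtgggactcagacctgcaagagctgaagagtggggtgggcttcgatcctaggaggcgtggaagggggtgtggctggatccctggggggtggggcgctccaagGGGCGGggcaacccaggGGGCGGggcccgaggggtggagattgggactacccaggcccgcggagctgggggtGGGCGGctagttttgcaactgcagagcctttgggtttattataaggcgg
Sdc3: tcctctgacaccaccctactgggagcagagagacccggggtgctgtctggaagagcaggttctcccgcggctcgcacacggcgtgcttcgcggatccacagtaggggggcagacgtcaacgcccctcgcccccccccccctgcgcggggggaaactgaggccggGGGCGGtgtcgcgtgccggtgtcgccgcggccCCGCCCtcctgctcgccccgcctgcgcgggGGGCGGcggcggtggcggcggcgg
Sdc4: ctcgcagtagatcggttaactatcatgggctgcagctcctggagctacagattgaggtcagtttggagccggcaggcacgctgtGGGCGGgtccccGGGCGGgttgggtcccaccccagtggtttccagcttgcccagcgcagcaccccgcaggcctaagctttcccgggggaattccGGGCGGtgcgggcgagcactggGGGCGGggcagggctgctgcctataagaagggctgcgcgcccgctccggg
Sdc1 and Sdc3 held 3 GC boxes each and Sdc4 held 4. Of 27025 regions of the same length, 32.9% held at least 1 and 8.4% at least 3. The E-box CAGGTG (17.1% of regions), the AP-1 word TGANTCA (6.87%) and TATAAA (13%) had no match on either strand in these 3 regions. So the syndecans that moved apart did not differ in the presence of any of these words, which says nothing of the factors that bind them.

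The genes that build, modify and use heparan sulfate were read from 9 lists with 96 genes, of which 80 were tested. Between mimic control and high glucose 49 of 80 fell and 18 rose (median -0.54), beside 39.9% lower and 39% higher among all genes tested. Between inhibitor and vehicle 49 of 80 fell and 21 rose (median -0.63), beside 40.2% and 40.5%. Medians over all genes tested were 0.01 and 0.02. With the mimic 23 fell and 16 rose against its control, beside 18% and 15.8%, and with the inhibitor 0 of 80 were called. In high glucose 16 fell and 13 rose against vehicle, beside 12.2% and 12%. Between the negative controls 33 of 80 were lower and 26 higher in the inhibitor control, beside 35.7% and 38.5%. For the mimic effect minus the inhibitor effect, 17 were lower and 8 higher, beside 8.59% and 4.63%.

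Of 8 tested genes for other core proteins, 7 fell and 0 rose in both comparisons of transfected with untransfected cells, beside 39.9% to 40.2% lower and 39% to 40.5% higher among all genes. The list is wider than carriers of heparan sulfate and also holds Cspg4, Srgn and Cd44, so its counts are not about such carriers alone. Nrp1, a receptor for semaphorins and vascular growth factor, fell from 77.4 ± 8.36 CPM in high glucose to 11.2 ± 0.364 CPM in mimic control (log2 -2.78, adjusted p = 3.01e-16). Col18a1, the collagen that gives endostatin, fell by 2.19 on the log2 scale between vehicle and inhibitor (adjusted p = 4.69e-18). With the mimic, 4 of 8 fell and 3 rose, beside 18% and 15.8% of all genes. Hspg2, which encodes perlecan of basement membranes, fell (log2 -0.69, adjusted p = 7.77e-07), as did Cspg4 (log2 -0.66, adjusted p = 4.68e-06). Gpc5, the glypican outside the members, had 2 to 10 reads per group.

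Enzymes that make the chains did not move as a block. Ext1, a subunit of the chain polymerase, fell from 337 ± 12.1 CPM in vehicle to 74.9 ± 2.62 CPM in inhibitor (log2 -2.17, adjusted p = 9.35e-19) and by 1.88 between high glucose and mimic control (adjusted p = 2.75e-18). Extl1, of the same family, rose by 2.48 and 2.92 in these comparisons (adjusted p = 1.82e-16 and 2.44e-17). Of 5 polymerisation genes, 4 fell and 1 rose in each, beside 39.9% to 40.2% lower and 39% to 40.5% higher among all genes. Of 10 genes for linker synthesis 6 fell and 2 rose between high glucose and mimic control, beside 39.9% lower and 39% higher among all genes. Between vehicle and inhibitor 5 fell and 3 rose, near the 40.2% and 40.5% of all genes. Fam20b, a xylose kinase, was down by 1.76 between high glucose and mimic control (adjusted p = 5.68e-17).

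Of 10 genes for sulfation and epimerisation, 6 rose and 3 fell between high glucose and mimic control, and 4 rose and 4 fell between vehicle and inhibitor. The first compares with 39% higher and 39.9% lower among all genes, and the second lies at the share of all genes, 40.5% and 40.2%. Glce, the epimerase, rose by 1.39 and 1.33 (adjusted p = 9.71e-16 and 2.73e-15), and the sulfotransferase Hs6st1 fell by 1.28 in the second (adjusted p = 1.25e-15). Hs6st1 also fell in high glucose against vehicle, from 63.0 ± 2.42 to 37.6 ± 1.01 CPM (log2 -0.74, adjusted p = 6.6e-10). Sulf1, which removes sulfate outside the cell, fell by 1.14 and 1.32 (adjusted p = 2.03e-15 and 3.05e-16). With the mimic, Ndst1 was the only called gene of 10, lower by 0.31 (adjusted p = 0.000107), beside 18% lower and 15.8% higher among all genes.

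Of 8 genes for release and processing of core proteins, which include metalloproteases, precursor-processing convertases and the hydrolases Notum and Gpld1, 6 fell and 1 rose in both comparisons. The background was 39.9% to 40.2% lower and 39% to 40.5% higher, and it holds for the other counts of this paragraph. The metalloproteases Mmp2 (log2 -1.63 and -1.66) and Mmp14 (log2 -1.61 and -1.56) were among those that fell. Of 9 cytoplasmic partners of syndecans, 2 fell and 4 rose with mimic control and 5 fell and 4 rose with inhibitor. Ezr, which links membranes to actin, fell by 1.30 with inhibitor against vehicle and by 0.30 with the mimic (adjusted p = 3.59e-15 and 0.000177). Of 18 ligands and receptors that depend on heparan sulfate, 13 fell and 1 rose with mimic control, and 9 fell and 6 rose with inhibitor, the latter near the shares of all genes. Fn1, which encodes fibronectin, fell with the mimic from 6581 ± 169 to 5129 ± 144 CPM (log2 -0.36, adjusted p = 6.75e-05). Thbs1, which encodes thrombospondin, stood at 2.11 with the mimic (adjusted p = 0.02) and at -0.506 without mimic replicate 2.

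Of 9 integrins and receptors that pair with syndecans, 7 fell and 2 rose with mimic control, and 7 fell and 1 rose with inhibitor, beside 39.9% to 40.2% lower and 39% to 40.5% higher among all genes. Itgb3, the chain that pairs with Sdc1 through Itgav in known complexes, fell from 334 ± 16.4 CPM in vehicle to 26.9 ± 2.03 CPM in inhibitor (log2 -3.64, adjusted p = 4.22e-20). In high glucose against vehicle Itgb3 fell by 0.29 (adjusted p = 0.000588) while Itgav rose by 0.62 (adjusted p = 1.72e-06). With the mimic 5 of 9 fell and 4 rose, beside 18% and 15.8% of all genes, and Epha2 was lower by 0.57 (adjusted p = 9.25e-07).

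**Figure D4:**
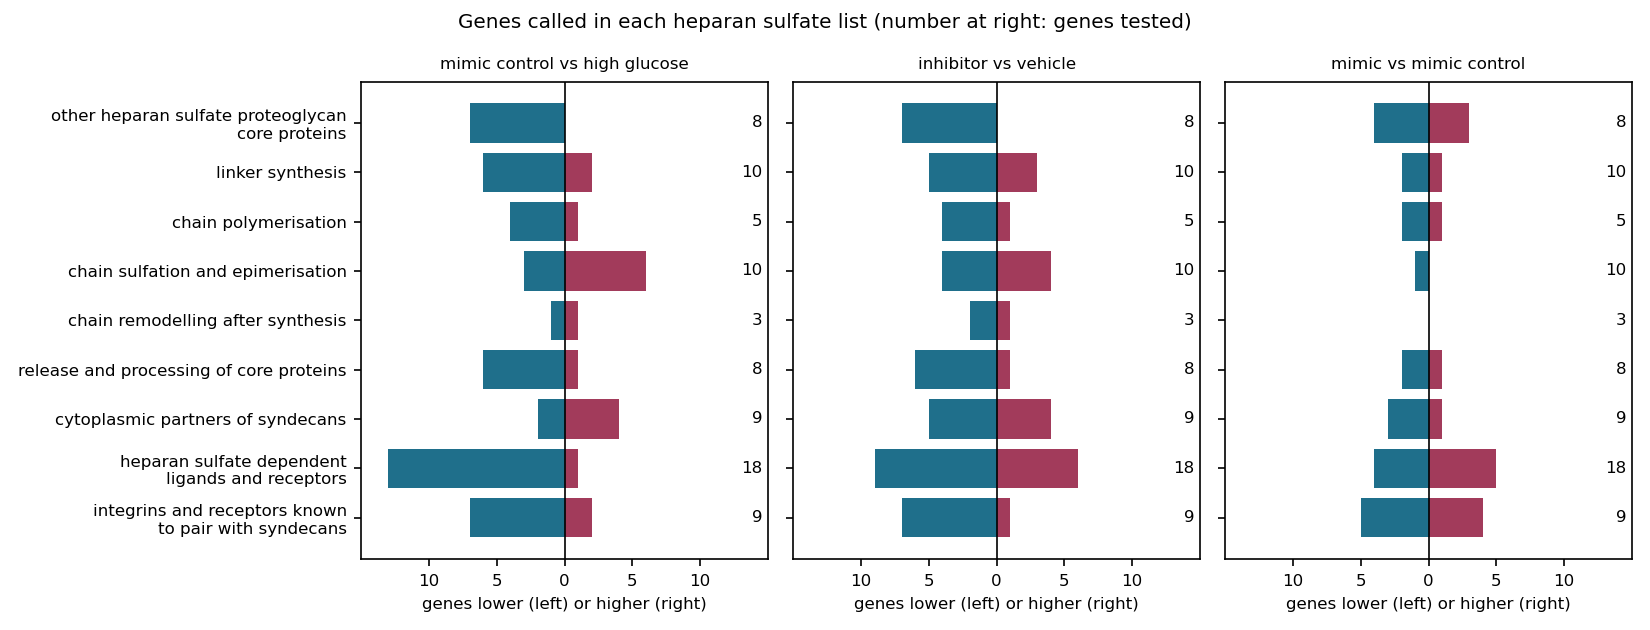
Number of genes called lower (left) and higher (right) in each of 9 heparan sulfate lists, for 3 comparisons, with the number tested at the right edge of each panel. Of the 8 other core protein genes, 7 are lower and 0 higher in both comparisons with untransfected cells, while sulfation genes are split.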

How the data were processed

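RNA was sequenced in 18 libraries as stranded mRNA, with paired reads of 150 nt. Per the labels' protocols, the authors trimmed reads with FASTX-Toolkit 0.0.13, mapped them with HISAT2 to GRCm39 and counted uniquely mapped reads. The deposited counts are raw read counts per gene, and the deposited FPKM values were computed by the authors from mapped fragments. Not given in the sources used here were the counting program, its annotation and its use of strand, so reads of Sdc1 and Gpc1 cannot be told apart from those of Gm4755 and Ankmy1, which overlap them on the other strand and lay below the filter.

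Genes were kept by edgeR's filter (minimum count 10, minimum total 15) and scaled by TMM. A quasi-likelihood fit of 6 groups (edgeR 4.0.16, R 4.3.3, 12 residual degrees of freedom) gave each comparison, with Benjamini-Hochberg adjustment over 15074 genes. The fit was tested on simulated data with 15074 genes. For mimic against its control it recovered 63% of 100 log2 changes of 0.5 and 82% of 100 changes of 1, with 9 false calls. For high glucose against vehicle it recovered 58% and 80%, with 7 false calls. Changes smaller than 0.5 were not simulated. DESeq2 1.42.0 and limma 3.58.1 (on log2(FPKM + 1) or log2(FPKM + 0.1)) were alternatives, with other scalings, no filter, the compared groups alone, a replicate block and each library left out. Marker sums used unscaled CPM. The members and lists were chosen with earlier results of these data known. From each list, up to 2 genes per comparison could be named, those called with the largest change at 5 CPM or more. The 5 genes most like Sdc1 were named by pattern, leaving out predicted gene models.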

Additional observations from a re-analysis of the deposited data

Results flagged for a closer look

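The effects of the mimic and of the inhibitor, each against its own control, differed for 2 members by the test of the difference itself. Gpc1 differed by -0.42 on the log2 scale (adjusted p = 0.000999 by edgeR), with effects of -0.47 and -0.05. Sdc4 differed by -0.22 (adjusted p = 0.0265), with effects of -0.18 and 0.04. All groups have 3 libraries, so single libraries were not tested for standing apart.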

How the results depend on the processing

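For the 6 tested members, 648 of their single values kept direction and call under the alternatives, 21 lost a call and 11 gained one. For genes of the lists 1476 values kept direction and call, 70 lost a call and 1 reversed. The reversal was Thbs1 with the mimic, which ranged from -0.506 (without mimic replicate 2) to 2.602 with a library left out. In high glucose against vehicle, 2 members in place of 1 were called with no low-count filter, in DESeq2 and with the compared groups alone, and 1 to 2 with a library left out (2 without high glucose replicate 3 or mimic replicate 2). With the mimic, 2 members in place of 4 were called in each of the 3 limma fits on FPKM. For the mimic effect minus the inhibitor effect, 1 member in place of 2 was called with upper quartile scaling, with no low-count filter and in the 3 limma fits, and 1 to 2 with a library left out (1 without inhibitor replicate 3, inhibitor control replicate 2 or mimic control replicate 2). The Sdc1 difference, inhibitor control vs high glucose, lay at -3.107 with upper quartile scaling and at -3.137 with limma on log2(FPKM + 1), with and without the filter. Over all genes, inhibitor against its control gave 13 higher and 13 lower with no low-count filter, 7 and 11 with limma on unfiltered FPKM and 0 and 1 with the compared groups alone, against 0.

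Same-numbered libraries did not deviate together: 1 of 45 pairs correlated above 0.1 (range -0.174 to 0.103). With the replicate block, and with Sdc1 left out of the counts as above, the members called stayed at 1, 4, 0, 4, 5, 5 and 2. The order is high glucose, mimic, inhibitor, mimic control, the controls, inhibitor against vehicle, and the difference of effects. The cause of these changes was not tested. Depth left Gpc3 and Gpc4 untested.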
